A study of Mus musculus with 17 samples.

Results

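The IL-1 cytokine family was followed at the level of open chromatin in bone marrow-derived macrophages (BMDMs) of mouse. The 6 genes considered were Il1a, Il1b, Il1rn, Il1f9 (also called Il36g), Il1f6 (also called Il36a) and Il18. All peaks within 20 kb of their gene bodies were collected from 17 ATAC-seq peak lists. ATAC-seq marks accessible DNA by the insertion of sequencing adapters with a transposase, and a peak is a stretch with more insertions than the background of its own library. Peaks of the 17 lists that overlapped were merged into consensus sites, and 20 of the 34155 consensus sites lay within 20 kb of these genes. Of these, 6 were assigned to Il1a, 5 to Il1b, 6 to Il1rn and 3 to Il18, while Il1f9 and Il1f6 had 0. When every deposited peak was merged, the 6 genes had 44 elements, of which 24 lay outside the consensus sites.

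The cells came from the femurs and tibias of male C57Bl6/J mice 6 to 12 weeks of age and had been differentiated with medium conditioned by L929 cells. The mice were wild type (WT) or lacked the nuclear receptor Nur77, encoded by Nr4a1, in the whole body (Nur77-KO). Per the study's methods, the knockout came from a cross of CMV-Cre mice with mice carrying loxP-flanked Nr4a1, and knockouts that no longer carried Cre were compared with WT littermates. The genotype label of the knockout samples reads only cre. BMDMs of each genotype were left without lipopolysaccharide (LPS, 0 h) or were given 100 ng/ml LPS for 1 h or for 18 h. Each group held 3 peak lists, apart from WT at 1 h, which held 2, of which 1 is labelled replicate 1-2. No label says whether replicates were separate animals, so the p-values below measure the spread between these samples, which may be technical. In bulk chromatin, a change in the share of cells that are open at a site and a change per cell cannot be told apart.

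IL-1α and IL-1β are the classical inflammatory ligands of the family and act through the same receptor, which recruits the adaptor MyD88 and activates NF-κB. IL-1 receptor antagonist, the product of Il1rn, occupies that receptor without signalling, so that agonists and their natural inhibitor are encoded in the same family. Il1f9 and Il1f6 encode IL-36γ and IL-36α, ligands best known from epithelia, and Il18 encodes a cytokine that drives interferon-γ production and is kept as an inactive precursor until caspase-1 cleaves it. In macrophages, LPS acts through Toll-like receptor 4, and Il1b is known as an early response gene of this pathway. Macrophages keep Il18 transcribed at rest, in contrast to Il1b. AP-1, NF-κB, C/EBP factors and PU.1 are the transcription factors most often tied to these genes in myeloid cells.

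Each site is named by its gene and the distance of its summit from the annotated start of that gene, so that Il1b −2.4 kb lies 2.4 kb upstream of Il1b. The stretches shown here are the 201 bases round the summit of 5 sites that the results below turn on, and the 250 bases upstream of the start of Il1b and Il18, whose promoter sites rose after LPS. They were read from GRCm38, the assembly of mm10, in the direction of transcription of the gene, and capitals mark matches to the motifs named below.

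Il1a −10.3 kb, chr2:129320148-129320348, minus strand, intergenic, with an AP-1 match:
Il1a −10.3 kb: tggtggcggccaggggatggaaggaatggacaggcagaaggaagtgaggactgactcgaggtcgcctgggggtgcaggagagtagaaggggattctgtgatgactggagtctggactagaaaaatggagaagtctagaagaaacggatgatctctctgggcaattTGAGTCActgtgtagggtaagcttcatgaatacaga
Il1a −6.0 kb, chr2:129315921-129316121, minus strand, intergenic, with a C/EBP match:
Il1a −6.0 kb: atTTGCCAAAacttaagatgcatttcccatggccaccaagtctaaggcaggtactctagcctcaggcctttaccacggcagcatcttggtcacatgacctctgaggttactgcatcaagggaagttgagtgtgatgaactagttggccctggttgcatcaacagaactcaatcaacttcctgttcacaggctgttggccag
Il1b −2.4 kb, chr2:129373422-129373622, minus strand, in an exon of the antisense transcript Il1bos, with an AP-1 and a PU.1 match:
Il1b −2.4 kb: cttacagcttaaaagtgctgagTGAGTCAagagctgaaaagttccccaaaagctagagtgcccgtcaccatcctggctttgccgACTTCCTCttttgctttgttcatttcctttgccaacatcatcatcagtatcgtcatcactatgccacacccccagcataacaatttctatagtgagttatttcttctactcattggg
Il1rn +4.8 kb, chr2:24341517-24341717, plus strand, in an intron of Il1rn, with an AP-1 match and 2 C/EBP matches:
Il1rn +4.8 kb: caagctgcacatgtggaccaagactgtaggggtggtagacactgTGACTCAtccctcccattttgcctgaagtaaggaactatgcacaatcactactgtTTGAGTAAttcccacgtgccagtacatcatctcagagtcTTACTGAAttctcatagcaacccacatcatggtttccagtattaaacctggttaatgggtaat
Il1rn +16.3 kb, chr2:24353102-24353302, plus strand, intergenic and past the end of Il1rn, with an AP-1 match:
Il1rn +16.3 kb: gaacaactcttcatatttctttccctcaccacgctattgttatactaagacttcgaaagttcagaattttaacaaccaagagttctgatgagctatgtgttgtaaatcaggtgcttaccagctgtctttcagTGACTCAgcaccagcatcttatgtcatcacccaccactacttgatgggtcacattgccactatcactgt
Il1b promoter, chr2:129371140-129371389, minus strand, upstream of the RefSeq start:
Il1b promoter: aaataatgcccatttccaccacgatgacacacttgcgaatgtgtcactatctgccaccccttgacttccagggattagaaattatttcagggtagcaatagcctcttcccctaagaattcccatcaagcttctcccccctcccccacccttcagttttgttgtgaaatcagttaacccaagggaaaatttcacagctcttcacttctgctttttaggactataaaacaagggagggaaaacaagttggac
Il18 promoter, chr9:50554450-50554699, plus strand, upstream of the RefSeq start:
Il18 promoter: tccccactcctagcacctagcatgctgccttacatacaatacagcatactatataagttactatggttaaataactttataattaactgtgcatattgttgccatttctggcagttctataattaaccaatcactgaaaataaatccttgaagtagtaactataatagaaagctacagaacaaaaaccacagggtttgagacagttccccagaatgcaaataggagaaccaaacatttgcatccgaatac

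Either strand of the 100 bp on each side of a summit was searched for each motif, and a match describes the letters only. Matches of different motifs were counted separately, also where they overlapped. AP-1 (TGAGTCA or TGACTCA) was found at 6 of the 20 sites and at 16.6% of all 34155 sites. The AP-1 matches lay at Il1a −10.3 kb, Il1b −2.4 kb, Il1rn +4.8 kb, Il1rn +16.3 kb, Il18 +15.5 kb and Il18 +36.2 kb. C/EBP (TTGCNNAA or TTACNNAA) was found at 8 of the 20 sites and at 17.1% of all sites, and NF-κB at 2 of the 20 sites, Il1rn −1.3 kb and Il18 +36.2 kb, and at 4.87% of all sites. PU.1 (GAGGAAGT) was found at 1 of the 20 sites against 7.99% of all sites, and NBRE (AAAGGTCA), the monomer motif of Nur77, at 1 of the 20, Il1a +3.8 kb, against 1.01%. CRE (TGACGTCA) and ISRE were found at 0 of the 20 sites, against 1.28% and 3.67% of all sites. None of these 7 motifs had a match in the 250 bases upstream of Il1b or Il18, while the AP-1 letters were in 4.46% and the C/EBP letters in 16.5% of 32851 RefSeq promoter stretches of that length.

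Because p-values and folds of a peak depend on library depth, each peak was given its rank inside its own list, from 1 for the strongest peak downwards. Ranks beyond 24389, the length of the shortest list, were set to that value, which is called the cap here. Differences between groups are given on the log2 rank scale, with a positive value for a site that moved toward the top of the lists. The lists held 24389 to 71456 peaks, and their recovered depth ran from 0.382 to 9.75 background reads per kb. The list of Nur77-KO at 18 h replicate 1 had narrow peaks, with a median width of 135 bp against 338 to 661 bp in the others. Promoter peaks at macrophage genes were found in 17 of 17 lists for Spi1, Adgre1, Itgam and Mertk and in 12 of 17 for Csf1r and Cd68. Of 16 marker genes of other cell types, 11 had a promoter peak in 0 of 17 lists, among them Ly6g, Cd3e and Epcam, whereas S100a8 had one in 15, Cd3d in 17, Zbtb46 in 13, Col1a1 in 14 and Pdgfra in 1. The Nr4a1 promoter carried a peak in 11 of 11 lists at 0 and 1 h of either genotype, and a promoter peak does not check a loxP deletion.

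After 1 h of LPS, sites at Il1a, Il1b, Il1rn and Il18 moved up in the peak lists. By limma, 10 of the 20 sites moved toward the top of the lists, where 13.8% of all sites did so, and 1 of the 20 moved down, against 14.3% of all sites. The sites that rose were 3 of 6 at Il1a, 3 of 5 at Il1b, 3 of 6 at Il1rn, and 1 of 3 at Il18. The median difference over the 20 sites was 0.23, beside −0.02 over all sites. Of the 20 sites, 8 had no list within the cap at 0 h, as had 18.9% of all sites. These were Il1a +0.8, −1.8 and −6.0 kb, Il1b +0.1 and −16.7 kb, and Il1rn −1.3, +9.8 and +16.3 kb. They became consensus sites only through lists with LPS and could not rank lower than at 0 h, so the filter fixed the direction of their differences from 0 h in part, and their p-values and counts are given as a description. Of the 10 sites that rose at 1 h, 5 were of this kind, and the other 5 were Il1a −10.3 kb, Il1b −2.4 kb, Il1rn +4.8 kb, Il1rn +8.4 kb and the Il18 promoter. The largest differences were found at Il1a −10.3 kb, at the Il18 promoter, at Il1b −2.4 kb and at Il1rn +4.8 kb. Without the narrow list and the shallowest list (WT at 1 h replicate 1-2), the counts were again 10 higher and 1 lower, against 15.3% and 14.3% of all sites in that fit. When a peak had to cover 50% of a site, which left 17 sites, 3 ranked higher and 2 lower, against 5.4% and 16.9% of all sites, so the one-sided count depended on which peaks were counted. By limma in WT alone, 7 of the 20 sites rose and 0 fell, against 2723 and 2140 of all 34155 sites. In Nur77-KO alone 8 rose and 1 fell, against 3217 and 2167 of all sites. Risen sites not called in WT alone were Il1rn +4.8 kb, Il1rn +8.4 kb and Il1b −16.7 kb (adjusted p = 0.086, 0.054 and 0.55). Those not called in Nur77-KO alone were Il1b −2.4 kb and Il1rn −1.3 kb (adjusted p = 0.053 and 0.32).

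**Figure D1:**
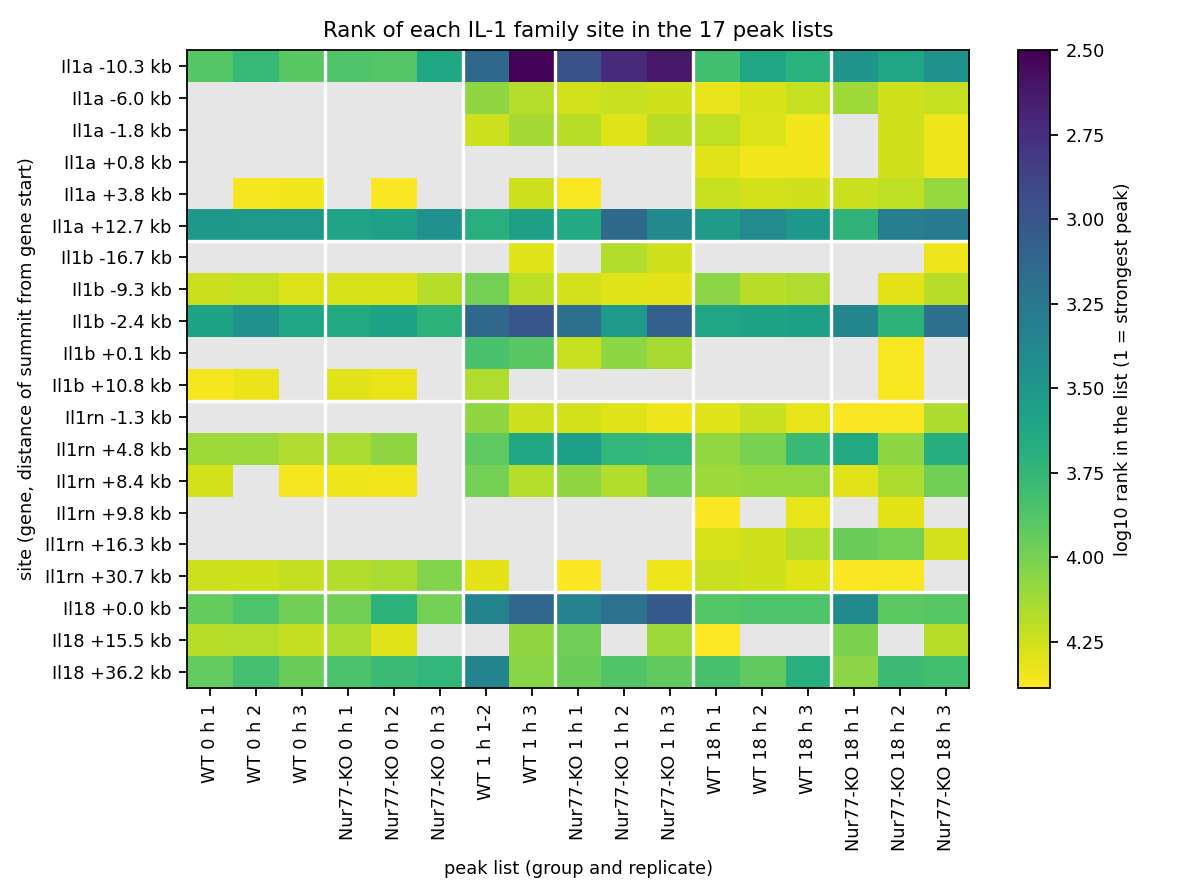
Rank of each of the 20 sites (rows) in each of the 17 peak lists (columns, by LPS time, genotype and replicate), on a log10 colour scale where dark is near the top of the list and grey means no peak within the cap. The Il1a −10.3 kb and Il18 +0.0 kb rows were darkest at 1 h, the Il1b +0.1 kb row was coloured almost only at 1 h, and the Il1rn +16.3 kb row was coloured only at 18 h.

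The gene body of Il1b (chr2:129364570-129371139, minus strand) gave the most conspicuous picture. Il1b encodes the precursor of IL-1β, the main secreted agonist of the family. The percentage of its 6570 bp under deposited peaks at 0 h was 0.365, 0 and 0.457 in WT and 0.213, 0 and 0 in Nur77-KO. At 1 h it was 85.2 and 100 in WT and 100, 82.1 and 96.2 in Nur77-KO. At 18 h it was 73.2, 29.3 and 26.0 in WT and 0, 15.0 and 6.30 in Nur77-KO. All 5 lists at 1 h thus lay far above the 6 lists at 0 h, and also above all 6 lists at 18 h. In 2 of the lists at 1 h, peaks covered the gene from end to end.

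With only peaks within the cap, the Il1b body was covered to between 64.8% and 100% at 1 h, to 0% in all 6 lists at 0 h and to between 0% and 10.4% at 18 h. The lists at 1 h had depths of 0.382 to 4.14 and those at 0 h of 0.720 to 9.75 background reads per kb. Over 17778 protein-coding genes of at least 5 kb, the median gene had 0.224% to 2.56% of its body under peaks in the lists at 1 h. In those lists between 1 and 4 genes, Il1b included, were covered as fully as Il1b. With limits set after these values were seen, Il1b was the only 1 of the 17778 genes with at least 50% of its body covered in every list at 1 h and under 10% in every list at 0 h. No test was made on this measure. It is a share of gene length, and genes were not matched by length, with Il1b at 6570 bp against a minimum of 5 kb.

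**Figure D2:**
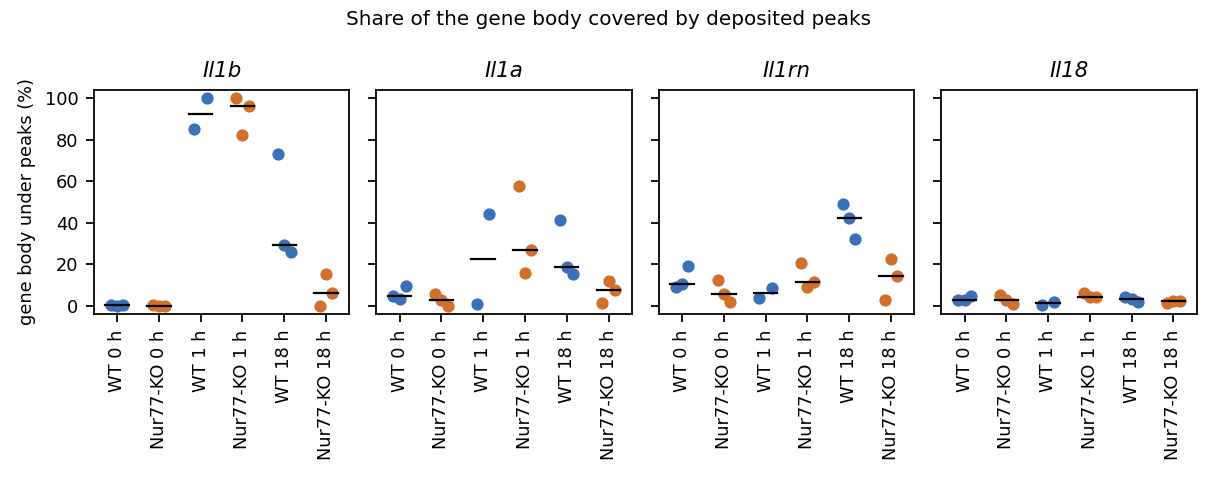
Share of the gene body under deposited peaks (percent) for Il1b, Il1a, Il1rn and Il18 in each group, with 1 point per list, blue for WT and orange for Nur77-KO, and a line at the group's median. For Il1b, the 5 lists at 1 h lay between 82.1% and 100%, and the 6 lists at 0 h at or under 0.457%.

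The coverage of the other gene bodies was lower. Il1a, which encodes the agonist IL-1α, had 0% to 9.53% of its body covered at 0 h, 0.579% to 57.8% at 1 h and 1.41% to 41.1% at 18 h. Il1rn had 1.81% to 19.2% at 0 h, 3.87% to 20.7% at 1 h and 2.77% to 49.2% at 18 h. For Il18 the ranges were 0.718% to 4.88% at 0 h, 0.429% to 6.06% at 1 h and 1.03% to 4.26% at 18 h. The ranges of the 3 times overlapped for each of these 3 genes. At 18 h the WT lists lay above the Nur77-KO lists for Il1b, Il1a and Il1rn, with depths of 4.62 to 8.38 in WT and 1.10 to 1.76 in Nur77-KO. The median over all genes moved the same way, with 1.75% to 3.10% in WT and 0.132% to 0.810% in Nur77-KO, and the part of depth in the difference was not tested.

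By rank, the consensus site over Il1b, Il1b +0.1 kb (chr2:129363077-129371738, 8662 bp), spanned the promoter and the whole gene. It was within the cap in 0 of 6 lists at 0 h, where 4 lists held a weak peak there at ranks 48642 to 62389 with 10 to 16 reads at the summit. At 1 h its ranks were 6958 and 7974 in WT and 17010, 11685 and 13768 in Nur77-KO. At 18 h it was within the cap in 1 of 6 lists, at rank 23272 in Nur77-KO replicate 2. The rise at 1 h was 1.26 ± 0.11 on the log2 rank scale (SE, adjusted p = 2.4e-07), and the change from 1 h to 18 h was −1.25 ± 0.11 (adjusted p = 2.2e-07). It had entered the consensus through all 5 lists at 1 h and 1 list at 18 h. The filter therefore fixed the direction of the rise and of the fall in part, and both p-values are given as a description. Lists set to the cap also share 1 value, which lowers the spread behind them. The site was thus within the cap in every list at 1 h, in 0 of 6 lists before LPS and in 1 of 6 later. When a peak had to cover 50% of this long site, the fall from 1 h to 18 h was not called (−0.63, adjusted p = 0.074).

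Upstream of Il1b, the site at −2.4 kb (chr2:129372679-129374221) was strong before LPS and stronger after 1 h. Its ranks at 0 h were 3924, 2966 and 4146 in WT and 4412, 3934 and 5226 in Nur77-KO. At 1 h they were 1376 and 1016 in WT and 1568, 3320 and 1208 in Nur77-KO. At 18 h they were 4064, 3860 and 3754 in WT and 2311, 5269 and 1580 in Nur77-KO. The times 0 and 1 h overlapped only through Nur77-KO at 1 h replicate 2, the second shallowest list. The rise at 1 h was 1.45 ± 0.33 (adjusted p = 0.0028) and the change from 1 h to 18 h −1.13 ± 0.33 (adjusted p = 0.015). The fall to 18 h was not called in the exact permutation test (adjusted p = 0.14) or when a peak had to cover 50% of the site (adjusted p = 0.51). Its call was also lost without WT at 1 h replicate 3 or with a replicate block, and either fit left WT at 1 h with 1 list. The rise was not called with that cover either (adjusted p = 0.30).

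Farther upstream, Il1b −16.7 kb (chr2:129387707-129388107, intergenic) was a weak site. It had a peak in 1 of 6 lists at 0 h, at rank 64008, and ranks of 19688 in WT replicate 3 and 29816, 14876 and 17691 in Nur77-KO at 1 h, with no peak in WT replicate 1-2. By 18 h the ranks were 46594, 38492 and 36288 in WT, and 31974 and 22024 in Nur77-KO replicates 1 and 3. The rise at 1 h was 0.27 ± 0.09 (adjusted p = 0.039) and was not called in 12 of the 17 fits that left out 1 list. It was also not called with depth as a covariate (adjusted p = 0.36), with 50% cover (0.053) or in the exact permutation test (0.18). Il1b −9.3 kb and Il1b +10.8 kb were not called at 1 h or 18 h.

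For Il1a (chr2:129299610-129309972, minus strand), the leading site was at −10.3 kb (chr2:129319599-129320827). It lies in the stretch between Il1a and Il1b, 10.3 kb upstream of Il1a and 50.9 kb downstream of the start of Il1b. At 0 h its ranks were 7818, 5825 and 7962 in WT and 7422, 7684 and 4206 in Nur77-KO. At 1 h they were 1376 and 330 in WT and 924, 544 and 426 in Nur77-KO. At 18 h they were 6537, 4265 and 5114 in WT and 3026, 4150 and 2894 in Nur77-KO. The 5 lists at 1 h did not overlap with those of either other time.

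The rise at this site after 1 h was 3.39 ± 0.35 (adjusted p = 1.6e-06), and the change from 1 h to 18 h was −2.71 ± 0.35 (adjusted p = 1.7e-05). The difference between 18 h and 0 h was 0.68 ± 0.33 (adjusted p = 0.15). Leaving out any 1 list kept both calls, with adjusted p of at most 1.4e-05 and 1.0e-04. When a peak had to cover 50% of the site, the fall to 18 h was not called (adjusted p = 0.15). Its AP-1 letters, shown above, lie at bases 166 to 172 of the 201.

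The promoter region of Il1a held a site at −1.8 kb (chr2:129309730-129312108), which reached over the start of the gene, and an intronic site at +0.8 kb (chr2:129308473-129309536). Il1a −1.8 kb was within the cap in 0 of 6 lists at 0 h. At 1 h it ranked 17414 and 13626 in WT and 15333, 19586 and 15545 in Nur77-KO. After 18 h the ranks were 16180, 19252 and 22303 in WT and 28007, 17942 and 22024 in Nur77-KO. The rise at 1 h of this site, chosen by lists with LPS alone, was 0.60 ± 0.12 (adjusted p = 0.0010), and all 5 lists at 1 h lay above all lists at 0 h. The decline from 1 h to 18 h (−0.33 ± 0.12, adjusted p = 0.046) was not called in 13 of the 17 fits that left out 1 list (adjusted p up to 0.18), with ties broken at random (0.062) or in the exact permutation test (0.13).

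Il1a +0.8 kb appeared late. It had a peak in 0 of 6 lists at 0 h and within the cap in 0 of 5 lists at 1 h. At 18 h it ranked 20174, 22126 and 22303 in WT and 17942 and 22024 in Nur77-KO replicates 2 and 3, with no peak in replicate 1. The site entered the consensus through the lists at 18 h alone, so a rise against either other time was fixed in part by the filter. The rise at 18 h against 0 h was 0.19 ± 0.06 (adjusted p = 0.024), and without WT at 18 h replicate 1 it was not called (0.17, adjusted p = 0.060). The rise against 1 h (0.19 ± 0.06, adjusted p = 0.028) was not called without that list or either WT list at 1 h (adjusted p up to 0.073). It was also lost with 50% cover (adjusted p = 0.23), depth as a covariate (0.079) and the exact permutation test (0.086). A replicate block, which left WT at 1 h with 1 list, lost it too. The rise against 0 h was lost with 50% cover (adjusted p = 0.18) and the exact permutation test (0.077).

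Il1a −6.0 kb (chr2:129315755-129316357, intergenic) appeared early and remained. No list at 0 h held a peak there. At 1 h it ranked 11828 and 15060 in WT and 18092, 17010 and 17691 in Nur77-KO. After 18 h they were 20839, 18770 and 16594 in WT and 13081, 17942 and 16726 in Nur77-KO. All 11 lists with LPS were within the cap, and these alone made it a consensus site. The differences from 0 h were 0.67 ± 0.11 at 1 h (adjusted p = 3.0e-04) and 0.51 ± 0.11 at 18 h (adjusted p = 0.0023). With a peak covering 50% of the site, the 18 h difference was not called (adjusted p = 0.072).

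The strongest Il1a site by median rank over all lists was Il1a +12.7 kb (chr2:129295147-129299536), just past the end of the gene, and it was not called at any time. Its ranks were 2849 to 4015 at 0 h, 1426 to 4926 at 1 h and 1909 to 5346 at 18 h, and the times overlapped. The difference was 0.05 ± 0.32 at 1 h (adjusted p = 0.99) and 0.23 ± 0.30 at 18 h (adjusted p = 0.66), with approximate 95% intervals of −0.59 to 0.68 and −0.37 to 0.82. Of the remaining Il1a sites, Il1a +3.8 kb, which holds the NBRE letters, rose at 18 h against 0 h by 0.54 ± 0.10 (adjusted p = 9.4e-04); it is named after its values were seen.

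**Figure D3:**
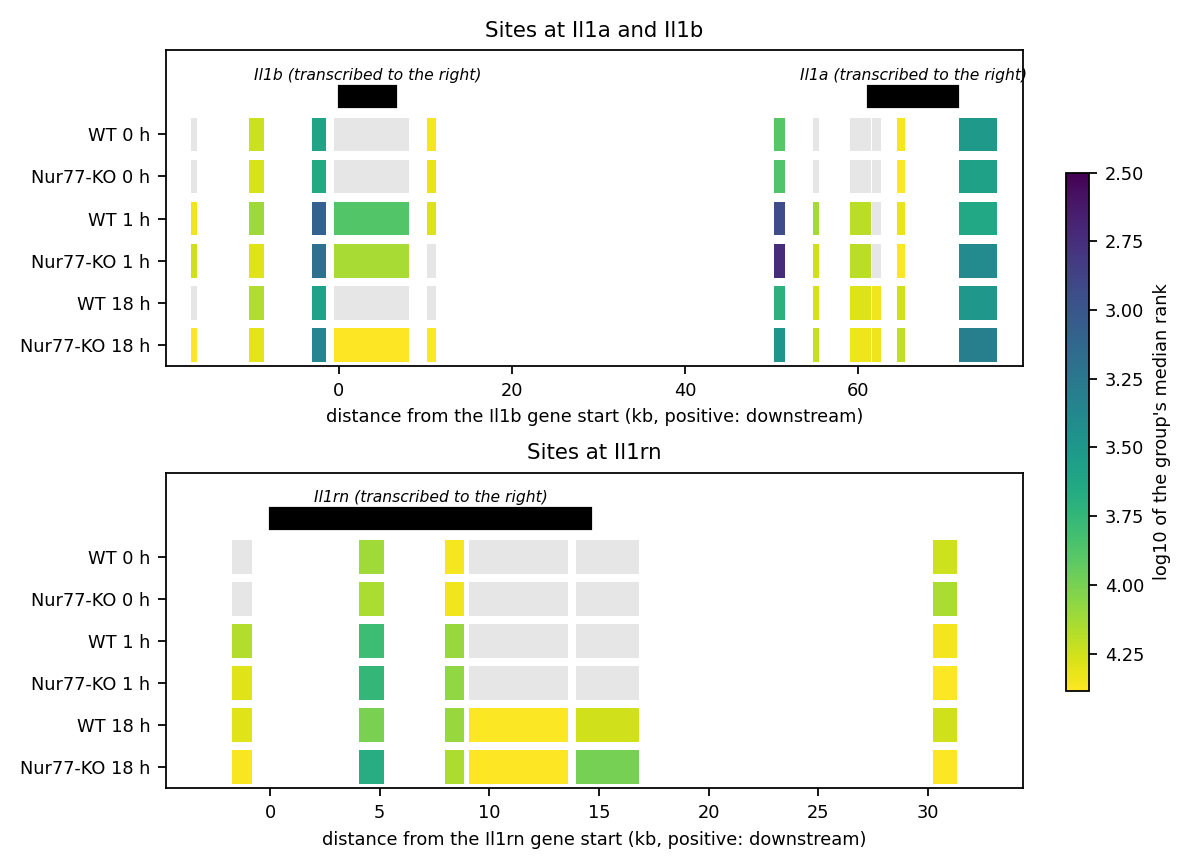
Map of the sites at Il1a and Il1b (top, distance in kb from the Il1b start) and at Il1rn (bottom, distance in kb from the Il1rn start), 1 row per group, coloured by the log10 of the group's median rank, with grey where 0 lists of the group had a peak within the cap. Sites shorter than 0.7 kb are drawn 0.7 kb wide, and black bars are gene bodies. The block over Il1b was coloured in both groups at 1 h, and the site 50.9 kb downstream of the Il1b start was darkest at 1 h.

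Il1rn (chr2:24336853-24351494, plus strand), the antagonist gene, lies on the same chromosome but far from Il1a and Il1b. It is transcribed from alternative starts, and the upstream start had a peak in only 3 of 17 lists, none better than rank 50136. The downstream start, that of transcript Il1rn-202, carried Il1rn +8.4 kb (chr2:24344809-24345698), which was within the cap in 15 of 17 lists. At 0 h its ranks were 18279, 25778 and 22888 in WT and 22012 and 22197 in Nur77-KO replicates 1 and 2, with no peak in replicate 3. At 1 h they were 9850 and 15060 in WT and 11778, 14876 and 9792 in Nur77-KO. At 18 h they were 12864, 12405 and 12299 in WT and 20182, 14306 and 9746 in Nur77-KO.

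All lists at 1 h thus ranked this promoter above all lists at 0 h, and at 18 h the narrow list overlapped with 0 h. The differences from 0 h were 0.88 ± 0.19 at 1 h (adjusted p = 0.0018) and 0.74 ± 0.18 at 18 h (adjusted p = 0.0049). Between 1 h and 18 h the site was not called. Both rises were lost with ranks capped at 10000 (adjusted p = 0.85 and 0.95), where most of its ranks met the cap, and when a peak had to cover 50% of the site (adjusted p = 0.21 and 0.075).

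The intronic site Il1rn +4.8 kb (chr2:24340894-24342045) was the strongest of the gene over all lists. At 0 h it ranked 13062, 12988 and 14606 in WT and 14094, 11810 and 24922 in Nur77-KO. At 1 h it ranked 8262 and 4213 in WT and 3672, 5574 and 5812 in Nur77-KO. The ranks at 18 h were 12130, 10192 and 5889 in WT and 4400, 11750 and 4714 in Nur77-KO. The times 0 and 1 h did not overlap, while 0 and 18 h did.

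Its rise was 1.45 ± 0.30 at 1 h (adjusted p = 0.0016) and 0.97 ± 0.28 at 18 h (adjusted p = 0.019). The 18 h call was lost without WT at 18 h replicate 3 (0.82, adjusted p = 0.060) or without Nur77-KO at 0 h replicate 3 (0.82, adjusted p = 0.058), and with the cap at 10000 (adjusted p = 0.15). When a peak had to cover 50% of the site, the 1 h call was lost (adjusted p = 0.67) and the 18 h difference turned to −0.18 (adjusted p = 0.82).

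Past the end of the gene, Il1rn +16.3 kb (chr2:24350782-24353673) was a late site. It was within the cap in 0 of 6 lists at 0 h and 0 of 5 lists at 1 h. At 18 h it ranked 18692, 17840 and 15062 in WT and 9176, 9784 and 18250 in Nur77-KO. These 6 lists alone made it a consensus site, so the direction of its differences was fixed in part by the filter. All 6 lists at 18 h lay above all 11 others, and the difference was 0.78 ± 0.14 against 0 h (adjusted p = 4.6e-04) and 0.78 ± 0.14 against 1 h (adjusted p = 5.6e-04). Among the alternatives tried, these calls were lost only with the cap at 10000 (adjusted p = 0.58 and 0.53) and, against 1 h, when a peak had to cover 50% of the site (adjusted p = 0.055).

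Il1rn +30.7 kb (chr2:24367086-24368170, intergenic), named after its values were seen, was the only 1 of the 20 sites called lower with LPS than at 0 h. It ranked 10715 to 17966 at 0 h and 20457 to 34562 at 1 h, so the times did not overlap. The difference was −0.61 ± 0.11 at 1 h (adjusted p = 5.7e-04) and −0.47 ± 0.11 at 18 h (adjusted p = 0.0031). At 18 h it was −0.08 ± 0.15 in WT (adjusted p = 0.96) and −0.87 ± 0.15 in Nur77-KO (adjusted p = 9.2e-04), and the difference of these responses, −0.79 ± 0.21, was not called (unadjusted p = 0.0015, adjusted p = 0.37). The 18 h call was lost when a peak had to cover 50% of the site (adjusted p = 0.17) and in the exact permutation test (adjusted p = 0.092). Il1rn −1.3 kb, also named after its values were seen, rose at 1 h by 0.52 ± 0.14 (adjusted p = 0.0087). This call was lost with depth as a covariate (adjusted p = 0.076) and with 50% cover (0.21, adjusted p = 0.10). It was also lost without WT at 1 h replicate 1-2 and with a replicate block (0.36), and either fit left WT at 1 h with replicate 3 alone. The long intronic site Il1rn +9.8 kb was within the cap in only 3 of 17 lists, all at 18 h, and was not called.

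Il18 (chr9:50554827-50581840, plus strand) lies on another chromosome. Its promoter site, Il18 +0.0 kb (chr9:50553580-50555478), overlaps the neighbouring gene Bco2 and was within the cap in 17 of 17 lists. At 0 h its ranks were 8672, 7408 and 9684 in WT and 9646, 5291 and 9858 in Nur77-KO. At 1 h they were 2228 and 1318 in WT and 2156, 1598 and 1076 in Nur77-KO. At 18 h they were 7730, 7333 and 7326 in WT and 2529, 8136 and 7950 in Nur77-KO.

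The promoter of Il18 was thus open before LPS, and all 5 lists at 1 h ranked it above all 12 others. The rise at 1 h was 2.34 ± 0.32 (adjusted p = 3.2e-05) and the change from 1 h to 18 h −1.97 ± 0.32 (adjusted p = 1.6e-04). The difference between 18 h and 0 h was 0.37 ± 0.30 (adjusted p = 0.42). The calls depended on which peaks were counted: when a peak had to cover 50% of the 1899 bp site, the differences were −0.45 at 1 h (adjusted p = 0.33) and 0.57 from 1 h to 18 h (adjusted p = 0.32). The Il18 site with the best median rank over all lists, Il18 +36.2 kb (chr9:50590529-50591655), had ranks of 2228 to 11542, and its difference was 0.14 ± 0.33 at 1 h (adjusted p = 0.84) and −0.01 ± 0.31 at 18 h (adjusted p = 1).

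**Figure D4:**
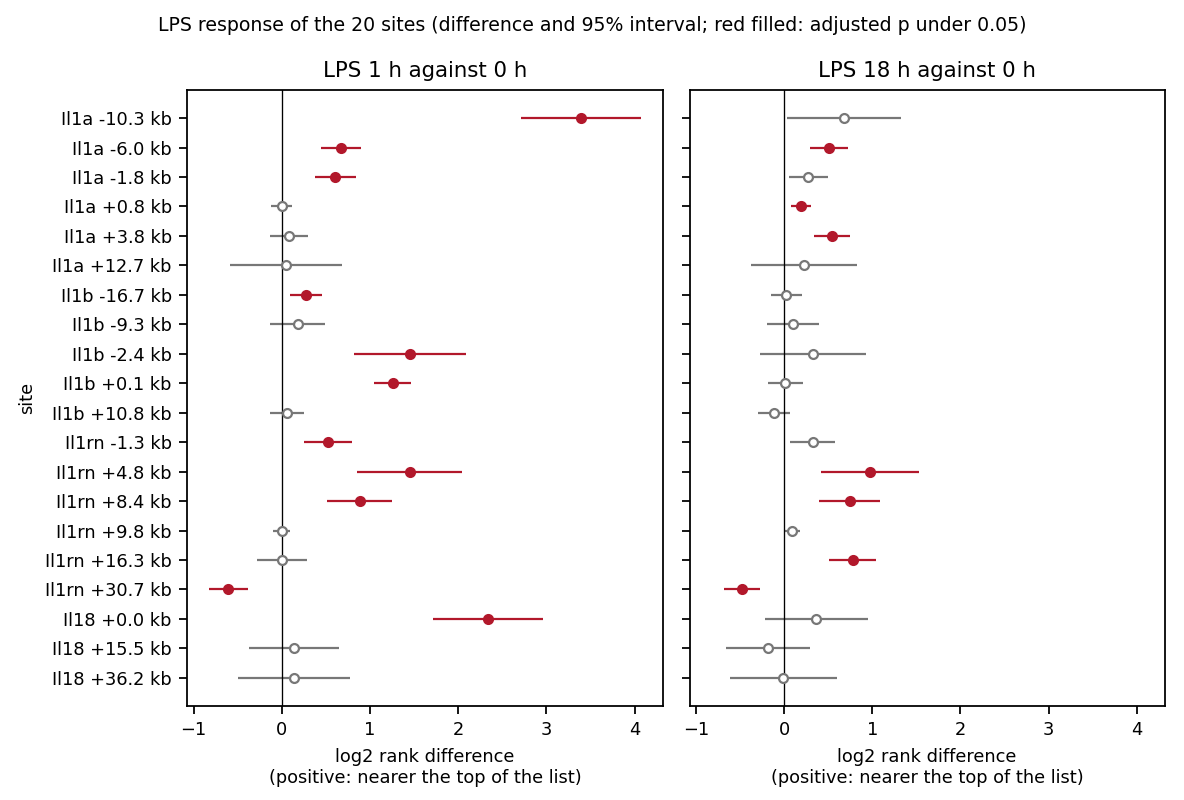
Difference on the log2 rank scale (x axis, positive toward the top of the list) between LPS and 0 h for the 20 sites (rows), at 1 h (left) and 18 h (right), pooled over the genotypes. Points are estimates and bars approximate 95% intervals, a normal multiple of the SE. Red filled points had an adjusted p under 0.05. At 1 h, 10 sites rose and 1 fell, with the largest rise of 3.39 at Il1a −10.3 kb, and at 18 h, 6 rose and 1 fell.

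After 18 h of LPS, 6 of the 20 sites ranked higher than at 0 h, where 10.9% of all sites did so, and 1 ranked lower, against 12.8% of all sites. Of the 6 sites, 3 had no list within the cap at 0 h. In WT alone 0 of the 20 sites were called at 18 h by limma (smallest adjusted p = 0.051, and 6 sites at an unadjusted p under 0.05), against 10.3% of all sites, and in Nur77-KO alone 4 rose and 1 fell, against 6.94% and 8.66%, while the difference between the genotypes was called at 0 sites. The 6 sites were 3 at Il1a and 3 at Il1rn, and the counts at Il1b and Il18 were 0 of 5 and 0 of 3. The median difference over the 20 sites was 0.25, beside 0 over all sites. Between 1 h and 18 h, 3 of the 20 sites rose, against 13.7% of all sites, and 5 fell, against 15.3% of all sites. The median difference from 1 h to 18 h was −0.17 over the 20 sites, beside 0.02 over all sites. The sites that rose from 1 h to 18 h were Il1rn +16.3 kb, Il1a +3.8 kb and Il1a +0.8 kb. Of these, Il1rn +16.3 kb and Il1a +0.8 kb had no list within the cap at 1 h. With depth as a covariate 1 site rose and 6 fell, against 7.93% and 12.1% of all sites, and in the exact permutation test 1 rose and 3 fell, against 5.20% and 8.26%. The calls of Il1a +3.8 kb (adjusted p = 0.051 with depth and 0.082 by permutation) and Il1a +0.8 kb (0.079 and 0.086) were lost in both. Those that fell back were Il1a −10.3 kb, Il1a −1.8 kb, Il1b +0.1 kb, Il1b −2.4 kb and the Il18 promoter. Il1b +0.1 kb had 0 lists at 0 h and 1 list at 18 h within the cap, so the filter fixed its fall in part. Without the narrow and the shallowest list, 8 sites rose and 1 fell at 18 h against 0 h, where 14.4% of all sites rose and 14.4% fell. In the same fit 4 rose and 7 fell from 1 h to 18 h, against 15.7% and 16.3% of all sites.

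Nur77-KO and WT were compared over the 3 times together. By limma, 0 of the 20 sites were called in either direction, where 0.395% of all sites were, and 2 of the 20, both at Il1b, had an unadjusted p under 0.05. The exact permutation test called 0 of the 20, and 0 of all 34155 sites. Its smallest possible p of 2.5e-04, reached by 74 of all sites, did not pass the adjustment. These 0 calls therefore do not show that the genotypes were alike. The largest of the 20 differences in size was −0.38 ± 0.13 at Il1b −9.3 kb (adjusted p = 0.30). At Il1a −10.3 kb the difference was 0.34, with an approximate 95% interval of −0.20 to 0.89, at the Il18 promoter 0.23 (−0.27 to 0.73) and at Il1b −2.4 kb −0.14 (−0.65 to 0.37). Without WT at 1 h replicate 3, 3 of the 20 sites were called, and these were Il1b +10.8 kb, Il1b +0.1 kb and Il1b −9.3 kb, all lower in Nur77-KO. That fit called 3.33% of all sites, 0.635% higher and 2.70% lower in Nur77-KO. WT at 1 h then rested on the shallowest list alone, which was assumed to vary like the other groups.

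The response to LPS was next compared between the genotypes. The difference of responses was called at 0 of the 20 sites at 1 h, against 0.0966% of all sites, and at 0 of the 20 at 18 h, against 0.00586%. By limma, the sites with an unadjusted p under 0.05 were 2 at 1 h and 1 at 18 h, and no other tool was run for these differences. At Il1a −10.3 kb the response at 1 h was 3.41 ± 0.52 in WT and 3.38 ± 0.46 in Nur77-KO, and the interval of their difference was −1.39 to 1.33. At the Il18 promoter the responses were 2.32 ± 0.47 and 2.36 ± 0.42, with an interval of −1.20 to 1.29. These intervals are wide, so differences of about 1 on the log2 rank scale were not detectable at these sites with this number of lists.

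Il1b +0.1 kb was the site with the smallest p for a difference of responses. It rose at 1 h by 1.71 ± 0.16 in WT and by 0.80 ± 0.14 in Nur77-KO, and the difference of −0.91 ± 0.21 (unadjusted p = 5.4e-04) was not called after adjustment over all sites (adjusted p = 0.14). The difference was called without WT at 1 h replicate 3 (−1.01, adjusted p = 0.015), where WT at 1 h was 1 list and 3.65% of all sites were called. It was also called without Nur77-KO at 1 h replicate 2 (−1.04, adjusted p = 0.028), where 0.296% of all sites were. The ranks at 1 h, 6958 and 7974 in WT and 11685 to 17010 in Nur77-KO, did not overlap.

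A contrast of the genotypes at 1 h, added after these values were seen and with the spread taken from all groups, gave −0.91 ± 0.16 (adjusted p = 0.0067) and called 1 of the 20 sites, against 1.06% of all sites. At this site 0 of 6 lists at 0 h and 1 of 6 at 18 h lay within the cap. The others were set to the cap and shared 1 value, which lowers the spread behind this SE and p-value. The same contrast called 0 of the 20 sites at 0 h, against 0.179% of all sites, and 0 at 18 h, against 0.694%, while limma, the only tool run for it, gave 1 member site at 0 h, 5 at 1 h and 3 at 18 h whose unadjusted p was under 0.05. The 5 at 1 h, Il1b +0.1 kb, Il1b +10.8 kb, Il1b −9.3 kb, Il1a −6.0 kb and Il1rn −1.3 kb, all had negative differences, with an adjusted p of at least 0.30 for the other 4. With depth as a covariate the 1 h value was −0.84 (adjusted p = 0.013). Without the narrow and the shallowest list it was −0.81 (adjusted p = 0.027), where WT at 1 h was 1 list assumed to vary like the other groups. It was not called on untransformed ranks (adjusted p = 0.065) or when a peak had to cover 50% of the site (−0.36, adjusted p = 0.98). With a replicate block, which also left WT at 1 h with 1 list, the value was −0.81 and the call was lost. The summit of the best peak held 10 and 35 reads in WT and 49, 11 and 19 in Nur77-KO, and the share of the Il1b body under peaks overlapped between the genotypes at 1 h. The rank of the strongest peak over Il1b and the length of the gene under peaks thus did not run the same way.

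**Figure D5:**
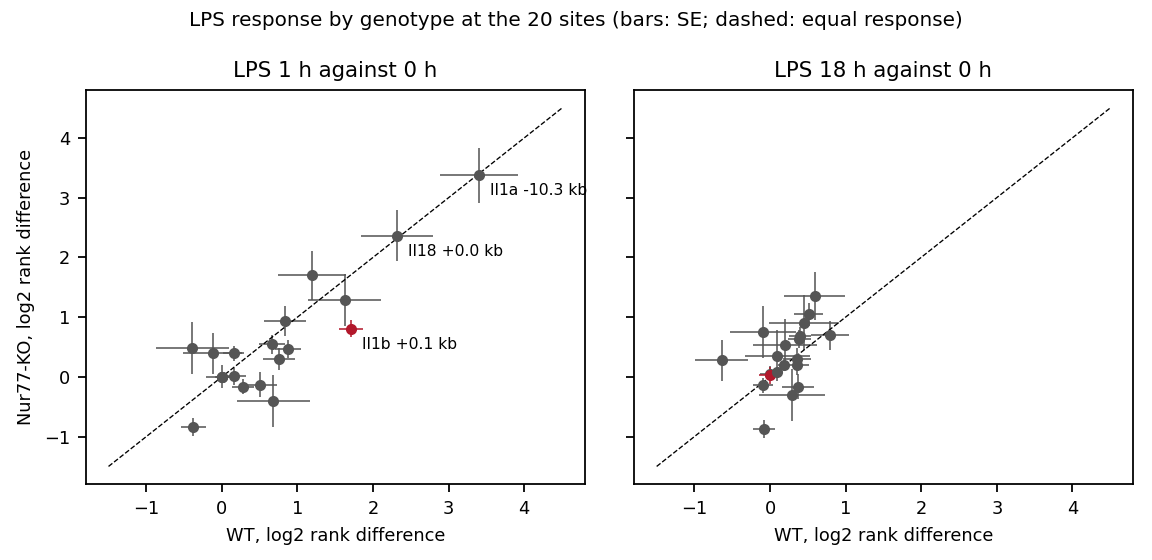
Response to LPS at the 20 sites in WT (x axis) and Nur77-KO (y axis), as the log2 rank difference from 0 h at 1 h (left) and 18 h (right), with SE bars and a dashed line of equal response. Il1b +0.1 kb (red) lay below the line at 1 h, at 1.71 in WT and 0.80 in Nur77-KO, and Il1a −10.3 kb lay on it.

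The IL-36 genes were nearly free of peaks. Il1f6 (chr2:24215418-24225702, plus strand) had 0 deposited peaks within 20 kb in any of the 17 lists. Il1f9 (chr2:24186476-24193568, plus strand) had 2 weak elements, both outside the consensus sites. The element at −4.4 kb had a peak in 3 of 3 WT lists at 0 h, 3 of 3 WT lists at 18 h, 1 Nur77-KO list at 0 h and 1 at 1 h, none better than rank 32461. The element at +0.1 kb, over the start of Il1f9, had a peak in 2 of 3 Nur77-KO lists at 1 h and in 0 of the 15 other lists, with best rank 25453 and 4 to 10 reads at the summit. At this depth, an absent peak does not show closed chromatin.

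The genes that act with the IL-1 family were counted by the same rule. The 20 genes were other ligands of the family, receptors, the IL-18 binding protein, adaptors and kinases, and 66 sites lay within 20 kb of them, of which 0 were shared with the 20 sites above. At 1 h, 13 of the 66 sites rose and 8 fell, with a median difference of 0.01, and at 18 h, 10 rose and 5 fell, with a median of 0.05. From 1 h to 18 h, 11 rose and 11 fell. By role, the sites that rose at 1 h were 3 of 5 at ligand genes, 4 of 15 at receptor genes, 0 of 4 at Il18bp and 6 of 42 at adaptor and kinase genes, and those that fell were 1 at Il18bp and 7 at adaptors and kinases. Of all sites, 13.8% rose and 14.3% fell at 1 h, 10.9% and 12.8% at 18 h against 0 h, and 13.7% and 15.3% from 1 h to 18 h. The largest called difference was a rise of 2.55 at the only site of Il1rl2, which encodes the IL-36 receptor (adjusted p = 1.2e-05), and this site fell by 2.19 from 1 h to 18 h (adjusted p = 5.4e-05). At 18 h against 0 h the largest was −1.91 at a site of Myd88, the adaptor of these receptors (adjusted p = 0.022). For the genotype, 0 of the 66 sites were called by limma, against 0.395% of all sites, and 0 were called for the differences of responses at 1 h and 18 h, against 0.0966% and 0.00586%.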

How the data were processed

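Peaks came from 17 ATAC-seq libraries of BMDMs. The authors trimmed reads with cutadapt 2.6, mapped them to mm10 and called peaks in each sample with the snakeATAC pipeline. The deposited lists give a −log10 p-value and −log10 q-value, a fold ratio over background and an integer score for each summit, and no read totals. Their peak names carry a mapping quality of 20, removed duplicates and a q-value threshold of 0.001. The count-based comparison of the authors with DiffBind 3.0.15 could not be refitted from peak lists. The score was not used further.

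Entries with the same interval were collapsed, and peaks were ranked by −log10 p-value, with mean ranks for ties, and capped at 24389. Peaks within the cap that overlapped by at least 1 bp and came from at least 2 lists made 34155 consensus sites. The −log2 rank of the best peak at each site was fitted with limma 3.58.1 (6 group means, moderated with trend and robust options), with Benjamini-Hochberg adjustment over all sites and a threshold of 0.05. LPS comparisons were averaged over genotypes. Lists beyond the cap share 1 value at a site, which lowers the spread where they are many. The exact permutation test over lists, within genotype or time, was the other test, with a smallest p of 0.005 for LPS and 2.5e-04 for genotype. Whole reads at the summit were recovered from fold and p-value for 100% of entries, and depth is background reads per kb, a relative index. Intervals are a normal multiple of the SE, not of the moderated t distribution behind the p-values, so they are approximate and somewhat narrow. They cover the spread between lists only. Gene models were GENCODE vM21, and promoter stretches came from RefSeq, with entries for 5 of the 6 genes. The fit was tested on simulated data.

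The members, gene lists and motifs were chosen with earlier results of these data known. Sites written out in full were those at a promoter, up to 3 called sites with the largest difference and the site with the best median rank of each gene, and any site called for genotype. Alternatives were another cap (10000), untransformed ranks, a peak covering 50% of the site, random ties, depth as a covariate, a replicate block, sites in at least 3 lists, windows of 10 and 50 kb and leaving out each list. Same-numbered lists did not deviate together (r −0.23 to 0.21 over 35 pairs), so the numbers were not taken as pairs.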

Additional observations from a re-analysis of the deposited data

Results flagged for a closer look

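The 5 elements below had deposited peaks in at least 2 lists with LPS and in 0 of the 6 lists at 0 h, and lay outside the consensus sites because they ranked too low, so no comparison above used them. The element Il1a +6.0 kb (chr2:129303559-129305649, intron of Il1a) had a peak in 5 lists with LPS, of which 3 were at 1 h and 2 at 18 h, at best rank 26000. The element Il18 +30.0 kb (chr9:50584716-50585053, intergenic) had a peak in 3 lists, all 3 Nur77-KO lists at 1 h, at best rank 26728. The element at the start of Il1f9 (chr2:24186308-24186791) had a peak in 2 lists, both Nur77-KO at 1 h. Il1rn −18.7 kb (chr2:24318095-24318386, intergenic) had a peak in 2 lists, both WT at 18 h, at best rank 49211. Il1rn +22.7 kb (chr2:24359432-24359748, intergenic) had a peak in 2 lists, both Nur77-KO at 1 h, at best rank 40418. Peaks at these 5 elements held 4 to 17 reads at the summit, and no difference between groups was tested.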

How the results depend on the processing

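Main counts of called sites among the 20 were 11 (1 h against 0 h), 7 (18 h against 0 h), 8 (18 h against 1 h) and 0 for genotype and both differences of responses. Of all sites, 13.8% rose and 14.3% fell at 1 h against 0 h, and 10.9% and 12.8% at 18 h against 0 h. From 1 h to 18 h the shares were 13.7% and 15.3%. For genotype and the differences of responses at 1 h and 18 h, 0.395%, 0.0966% and 0.00586% were called. Capped at 10000, where 9 sites were left, the counts were 5, 0 and 4, against 23.9%, 15.2% and 24.4% of all sites. When a peak had to cover 50% of a site, leaving 17 sites, they were 5 (3 higher and 2 lower), 2 and 1, against 22.3%, 12.9% and 9.35% of all sites. With a 50 kb window, which held 34 sites, they were 18, 11 and 11, from the main fit and thus with the same shares of all sites. The exact permutation test called 4 from 1 h to 18 h, against 13.5% of all sites. Leaving out 1 list gave 10 to 12, 6 to 9 and 7 to 8, 0 to 3 for genotype, 0 to 3 for the difference of responses at 1 h and 0 to 0 at 18 h. Over all sites these fits called 23.1% to 34.2%, 19.4% to 27.4%, 24.2% to 35.2%, 0.249% to 3.33%, 0.0381% to 3.65% and 0% to 0.468%. With a replicate block, where the shared numbers were not found to pair the lists, the counts were 10, 7 and 6, against 20.7%, 23.3% and 22.0% of all sites, with 0 for the 3 genotype comparisons. In the block, replicate 1-2 had a level of its own, so WT at 1 h rested on replicate 3 alone. Under the block the comparison of the genotypes at Il1b +0.1 kb within 1 h was −0.81 and its call was lost. Untransformed ranks gave 10 at 18 h against 0 h, where 3752 of all 34155 sites rose and 4508 fell. The only 3 differences that reversed did so when a peak had to cover 50% of the site: Il18 +0.0 kb at 1 h (−0.45) and from 1 h to 18 h (0.57), and Il1rn +4.8 kb at 18 h (−0.18). The cause was not tested. With depth as a covariate, 4 calls at single sites were lost, and with sites in at least 3 lists 0. Depths ran from 0.382 to 9.75 background reads per kb, and changes among ranks beyond the cap were not seen.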
